A study of Mus musculus with 12 samples.

Results

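Mouse embryos bred so that cardiomyocytes keep no intact allele of Mib1 were compared with controls carrying the same Cre, using RNA from heart ventricles at E15.5. The comparison rests on 6 of the 12 libraries of the study, chosen by genotype alone. The Mib1 mutant carried the premature stop allele R530X over a loxP-flanked allele (Mib1 R530X/flox) with 1 copy of Tnnt2-Cre, and the Cre control carried 1 loxP-flanked and 1 normal allele (Mib1 flox/+) with the same Cre. Each genotype was sampled as 3 pools of 4 pairs of ventricles, so embryos within a pool cannot be separated, and p-values measure the spread between pools. The other 6 libraries, used to estimate the spread and for 1 further comparison, came from wild-type (WT) embryos and from triple heterozygotes, which carried R530X and missense alleles of Asxl3 and Apcdd1 on 1 chromosome copy each, without loxP alleles or Cre.

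The Tnnt2 promoter drives Cre in cardiomyocytes, so by design the loxP-flanked allele is deleted there and kept in endocardium, coronary vessels, epicardium and fibroblasts. R530X is a germline allele present in every cell, so the cells outside the Cre lineage also differed between the groups, with 1 functional Mib1 allele in the mutant and 2 in the control. Mib1 encodes an E3 ubiquitin ligase that mono-ubiquitinates Notch ligands of the Delta and Jagged families, a step that the cell sending the signal needs to activate Notch receptors on its neighbours. In the fetal heart, signals between myocardium and endocardium shape the trabeculae, the muscular ridges of the inner wall, and the compact outer wall. Trabeculae are known for Nppa, Bmp10 and Gja5, the compact wall for Hey2 and Tbx20.

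Library totals of the 6 pools ran from 10103548 to 14774121 reads assigned to genes, so that 1 read corresponds to 0.0676 to 0.0966 CPM, the read count of a gene scaled to a common library size. Xist, the RNA of the inactive X chromosome, was at 0.387 CPM in Cre control replicate 1 and 0.095 CPM in Mib1 mutant replicate 1, against 131 to 458 CPM in the other 4. Summed cardiomyocyte markers reached 48200 to 53500 CPM in the controls and 38900 to 47900 CPM in the mutants, and Myl2, the ventricular myosin light chain, stood at 4010 to 6810 CPM over the 6 pools. All 10 of these markers were present in every pool. Mib1 mutant replicate 1 was the lowest of the 6 in that sum.

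Of 13964 genes tested, 210 were called at an adjusted p under 0.05 (1.5% of genes), 127 higher in the Mib1 mutant (0.909%) and 83 lower (0.594%). Changes were moderate for most of them. At least 2-fold differences were found for 20 of the higher and 31 of the lower genes, and the median log2 fold change was 0.58 among the higher and -0.821 among the lower, against 0.005 over all genes tested. Over all 13964 genes tested, 51.2% had positive fold changes and 1954 had an unadjusted p under 0.05, the background for the list counts below. All 210 had mutant pools that lay wholly on 1 side of the control pools, a pattern that 16.6% of all genes tested showed. In 185 of them the 3 mutant pools also lay beyond all 9 other pools, against 5.75% of all genes. The 210 were called by a test on these same mutant and control pools, so neither pattern is separate support. Dropping Cre control replicate 2 left 123 calls, dropping Cre control replicate 3 left 116, and dropping Mib1 mutant replicate 2 gave 415. With the pools low in Xist dropped there were 110. With each pool left out in turn, 91 of the 210 genes were called every time, and all 210 kept their direction in every alternative that tested them.

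**Figure D1:**
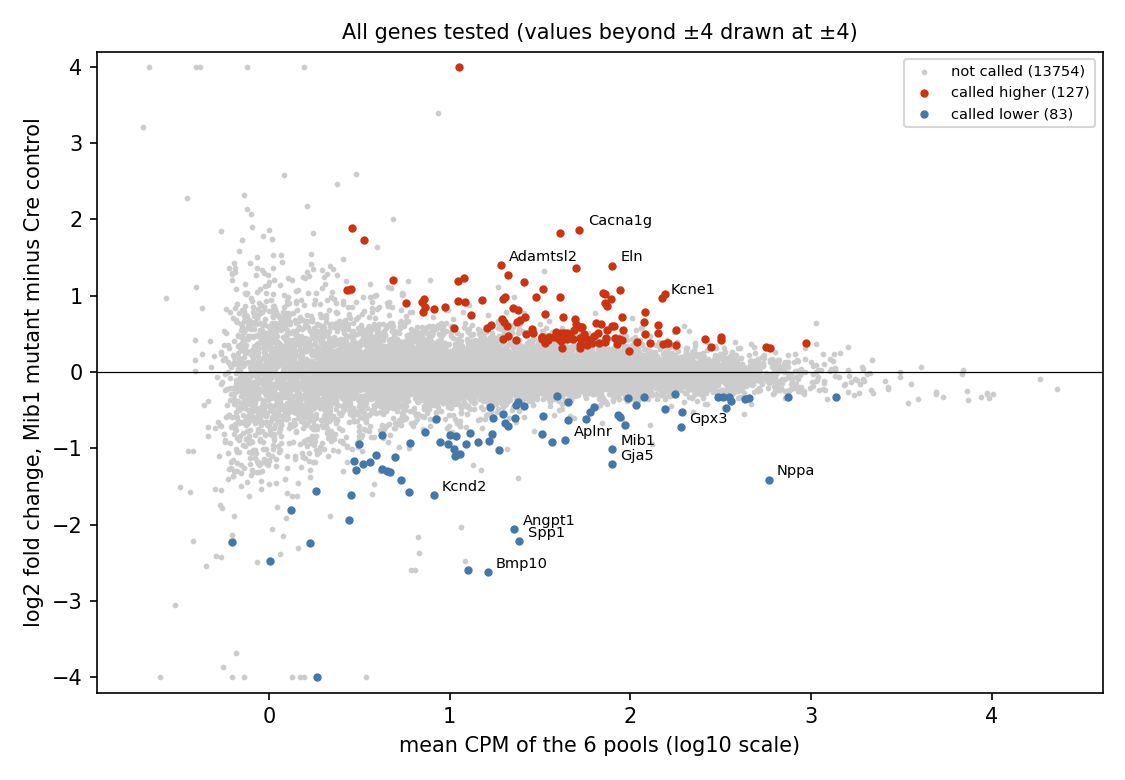
Log2 fold change of Mib1 mutant over Cre control (y axis, values beyond ±4 drawn at ±4) against the mean CPM of the 6 pools (x axis, log10 scale), 1 point per gene tested, with 127 genes called higher in red and 83 called lower in blue. Bmp10 and Spp1 were among the largest decreases and Cacna1g among the largest increases.

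The targeted gene was checked first. Mib1 stood at 108, 107 and 101 CPM in the 3 control pools and at 54.8, 50.1 and 51.8 CPM in the 3 mutant pools. The groups did not overlap, and the log2 fold change was -1.01 ± 0.0941 (SE, adjusted p 4.75e-05). The mutant pools also lay below the triple heterozygote pools (57.9 to 74.1 CPM), with WT pools at 126 to 145 CPM. Counts were summed over the whole gene, so reads from the stop allele, the recombined allele and the intact alleles of other cells cannot be told apart.

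Secreted signals and their receptors were among the strongest decreases. Angpt1, which encodes angiopoietin 1, a ligand of the endothelial receptor Tie2 made by myocardium (chr15:42424723-42676977, GRCm38), stood at 40.4, 29.6 and 40.2 CPM in the controls and at 8.74, 9.04 and 8.79 CPM in the mutants. The mutant pools lay close together and far below every control, and the log2 fold change was -2.05 ± 0.177 (SE, adjusted p 2.64e-05). Aplnr, the receptor for apelin found on venous and sprouting endothelium (chr2:85136225-85139923), fell from 57.1, 56.7 and 56.1 CPM to 29.1, 31.8 and 30.4 CPM, a log2 fold change of -0.90 ± 0.0866 (adjusted p 6.17e-05). These were the 2 called genes among 24 tested of the angiopoietin, apelin and VEGF list, whose median log2 fold change was 0.04.

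Bmp10, a BMP family ligand of trabecular myocardium, was at 36.7, 19.5 and 27.5 CPM in the controls and 5.51, 2.33 and 5.69 CPM in the mutants. No mutant pool came near a control pool, and the log2 fold change was -2.62 ± 0.302 (SE, adjusted p 0.000273). Bmp5, another ligand of the family, fell from 20.6 to 23.0 CPM down to 10.8 to 13.6 CPM (log2 -0.81 ± 0.112, adjusted p 0.00138). Both kept their call with every pool left out in turn. They were the only calls among 30 BMP and TGF-beta ligands and receptors, of which 20 had positive and 10 negative fold changes.

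In contrast to these ligands, 6 of 22 genes of the Id, Smad and TGF-beta response list rose and none was called lower, with a list median of 0.27 and positive fold changes for 21. Id2, a helix-loop-helix inhibitor induced by BMP, rose from 48.8 to 52.5 CPM up to 72.6 to 84.5 CPM (log2 0.65 ± 0.0748, adjusted p 0.000273). Every mutant pool was above every control pool. Pmepa1, a feedback inhibitor of TGF-beta signalling, rose by a log2 of 0.50 and Tgfbi, a secreted adhesion protein, by 0.62. Both were no longer called without the pools low in Xist (adjusted p 0.137 and 0.109). Ccn2, the connective tissue growth factor gene, was called with log2 0.65, but its adjusted p was 0.093 without Cre control replicate 1 and 0.134 without Cre control replicate 3. Ldlrad4 was called at log2 0.92, with adjusted p 0.0731, 0.12, 0.0808, 0.117 and 0.0727 without Cre control replicates 1, 2 and 3 and Mib1 mutant replicates 1 and 3.

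The trabecular list divided, with 5 of 15 genes called lower, 1 higher and a median of 0.03. Nppa, the gene of atrial natriuretic peptide, was at 841, 887 and 810 CPM in the controls and at 175, 481 and 299 CPM in the mutants. The mutant pools differed widely from each other but all lay below the controls, giving a log2 fold change of -1.41 ± 0.233 (SE, adjusted p 0.00485) that was 0.0562 when only the 6 libraries were fitted. Gja5, the gap junction gene connexin 40 of trabeculae and conduction fibres, fell from 125, 92.6 and 114 CPM to 60.9, 37.4 and 45.4 CPM (log2 -1.21 ± 0.142, adjusted p 0.000291). Cited1, a transcriptional co-regulator of fetal trabecular muscle, fell from 113 to 118 CPM down to 62.0 to 81.8 CPM (log2 -0.69 ± 0.104, adjusted p 0.00242). Sema3a, a guidance ligand that patterns cardiac nerves, had a log2 fold change of -0.67 and among the fits that left out 1 pool was called in the one without Cre control replicate 2, with adjusted p 0.111, 0.137, 0.0534, 0.0585 and 0.0796 without Cre control replicates 1 and 3 and Mib1 mutant replicates 1, 2 and 3.

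All 3 called genes of the compact wall list rose. Tnc, the matrix glycoprotein tenascin C, which was on the compact wall list and on the matricellular list, stood at 56.9, 47.8 and 55.5 CPM in the controls and 97.8, 109 and 104 CPM in the mutants (log2 0.95 ± 0.108, adjusted p 0.000251). Fzd2, a Wnt receptor, rose from 53.5 to 54.6 CPM up to 78.4 to 87.8 CPM (log2 0.63 ± 0.09, adjusted p 0.00164). Tbx20, a T-box factor of chamber myocardium and valves, was the last of them, at log2 0.32, with adjusted p 0.0502, 0.118, 0.108 and 0.0749 without Cre control replicates 1, 2 and 3 and Mib1 mutant replicate 1. The other 10 of the 13 genes tested were not called, and Hey2, a compact wall repressor and Notch target, was at 199 to 219 CPM in the controls and 182 to 234 CPM in the mutants.

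The letters upstream of 5 of these genes are shown because Notch signalling acts through the DNA-binding protein RBPJ, whose core site reads TGGGAA. When it lies on the opposite strand, the printed letters are TTCCCA. Each line gives the 250 bases before the RefSeq start on GRCm38.p6, 5′ to 3′ on the gene's strand, with matches to the RBPJ core in capitals. The windows are chr6:87428744-87428993 (plus strand) for Bmp10, chr6:21215096-21215345 (plus) for Kcnd2, chr4:148000472-148000721 (plus) for Nppa, chr13:92794819-92795068 (minus) for Thbs4 and chr4:64047016-64047265 (minus) for Tnc. Bmp10, Kcnd2 and Nppa fell and Thbs4 and Tnc rose. The set was chosen after the values and matches were seen.
Bmp10: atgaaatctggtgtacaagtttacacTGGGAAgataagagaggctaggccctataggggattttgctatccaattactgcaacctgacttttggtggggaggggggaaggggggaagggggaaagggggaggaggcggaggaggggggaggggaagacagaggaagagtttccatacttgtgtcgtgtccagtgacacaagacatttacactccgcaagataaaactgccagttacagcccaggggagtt
Kcnd2: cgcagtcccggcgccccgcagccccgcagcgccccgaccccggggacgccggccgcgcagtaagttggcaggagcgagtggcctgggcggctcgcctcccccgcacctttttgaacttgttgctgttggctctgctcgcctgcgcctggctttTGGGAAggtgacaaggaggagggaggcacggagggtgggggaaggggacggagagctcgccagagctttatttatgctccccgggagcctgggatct
Nppa: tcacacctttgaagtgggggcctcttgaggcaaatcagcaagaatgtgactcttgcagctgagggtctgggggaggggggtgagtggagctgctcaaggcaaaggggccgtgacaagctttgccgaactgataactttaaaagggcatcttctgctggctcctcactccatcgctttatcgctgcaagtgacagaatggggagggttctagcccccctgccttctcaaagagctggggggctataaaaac
Thbs4: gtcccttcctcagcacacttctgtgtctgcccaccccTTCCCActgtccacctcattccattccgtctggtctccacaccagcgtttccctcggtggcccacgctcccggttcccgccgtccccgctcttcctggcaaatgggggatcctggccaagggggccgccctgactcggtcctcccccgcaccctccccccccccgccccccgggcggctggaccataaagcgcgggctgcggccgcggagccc
Tnc: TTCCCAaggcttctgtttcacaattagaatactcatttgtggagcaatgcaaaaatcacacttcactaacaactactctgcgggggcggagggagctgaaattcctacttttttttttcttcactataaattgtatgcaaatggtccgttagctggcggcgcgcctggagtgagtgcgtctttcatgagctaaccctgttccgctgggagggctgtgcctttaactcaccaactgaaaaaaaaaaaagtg

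The core was present in 4 of these windows and absent from that of Nppa. Among the called genes with a RefSeq entry, it stood in 21.3% of 94 promoters of higher genes and 27% of 63 promoters of lower genes, against 20.6% of 10492 promoters of genes tested and 21.5% of all 27025 promoters. A match is a string of letters and not a bound site. Other motifs, searched on both strands in the same windows, were the TEAD core GGAATG (17% of higher, 7.94% of lower and 10.6% of tested promoters), the GATA site AGATAA (3.19%, 9.52% and 5.8%), the E-box CACGTG bound by HEY factors (8.51%, 6.35% and 8.43%) and the CArG box of serum response factor (4.26%, 4.76% and 1.17%). CArG matches were 4 and 3 promoters, so the share rests on few genes.

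Ion channel genes held the largest single increase among those named by p. Cacna1g, the T-type calcium channel Cav3.1 of pacemaker and conduction tissue (chr11:94408391-94474198), stood at 19.6, 25.9 and 21.8 CPM in the controls and 89.1, 80.5 and 76.0 CPM in the mutants. The groups were far apart, with a log2 fold change of 1.87 ± 0.14 (SE, adjusted p 7.59e-06). Of the 14 calcium channel subunits tested it was the only call higher, and Cacna2d2, an auxiliary subunit, was the only call lower (log2 -0.81). The call of Cacna2d2 ended without Cre control replicates 2 and 3 and Mib1 mutant replicates 1 and 3, at adjusted p 0.0836, 0.138, 0.124 and 0.1.

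Of 31 potassium channel genes, 4 were called lower and 1 higher, with a median of -0.04. Kcne1, the accessory subunit of the slow delayed rectifier and a gene of trabecular muscle, rose from 93.6, 112 and 97.2 CPM to 232, 183 and 180 CPM (log2 0.97 ± 0.0982, adjusted p 7.95e-05). It was the one member of the trabecular list called higher. Kcnd2, the Kv4.2 subunit of the transient outward current, fell from 13.3, 10.1 and 13.4 CPM to 4.56, 3.73 and 3.79 CPM (log2 -1.61 ± 0.16, adjusted p 7.07e-05). Its family member Kcnd3, at log2 -1.28, was called in the full fit but had adjusted p 0.0965, 0.129, 0.0669, 0.0593 and 0.0597 without Cre control replicates 1 and 3 and Mib1 mutant replicates 1, 2 and 3. Kcnk3, the background channel TASK-1, fell from 56.3, 43.0 and 45.8 CPM to 25, 27.3 and 24.7 CPM (log2 -0.91 ± 0.117, adjusted p 0.000641). Kcnj3, a subunit of the acetylcholine-activated channel of atrial muscle, fell from 15.8 to 20.8 CPM down to 8.96 to 11.6 CPM (log2 -0.91 ± 0.155, adjusted p 0.0059).

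Atrial genes gave 4 calls lower of 15 tested, namely Angpt1, Bmp10, Nppa and Kcnj3, and 1 higher, the secreted Wnt modulator gene Dkk3 (log2 0.98). The call of Dkk3 ended on leaving out Cre control replicate 1 (adjusted p 0.0563) or Mib1 mutant replicate 1 (0.0508). Among 22 genes of calcium cycling, Jph1, which ties the sarcoplasmic reticulum to the surface membrane, fell from 19.8 to 22 CPM down to 13.1 to 14.7 CPM (log2 -0.60 ± 0.0881, adjusted p 0.00216). Hrc, a calcium-binding protein of that reticulum, fell by a log2 of 0.43, with adjusted p 0.0514 when only the 6 libraries were fitted. Of 34 sarcomere and Z-disc genes, 29 had negative fold changes and the median was -0.12, but 1 was called, Xirp2 (log2 -1.31), and its call ended in 5 of the 6 fits that left out a pool (adjusted p 0.0588, 0.118 and 0.111 without Cre control replicates 1, 2 and 3, 0.13 and 0.0593 without Mib1 mutant replicates 1 and 2). At an unadjusted p under 0.05 there were 15 of the 34, against 1954 of all 13964 genes tested. DESeq2 called 6, with 2 higher and 4 lower, and limma-voom 0. In edgeR 1 was called higher without Cre control replicate 2, and 1 was called higher without Mib1 mutant replicate 1. None of the 17 intercalated disc genes was called by edgeR (3 at an unadjusted p under 0.05, 1 called by DESeq2, 0 by limma-voom, and 1 called higher by edgeR without Mib1 mutant replicate 2), and the summed cardiomyocyte markers were lower in every mutant pool than in every control pool. Their part in the falls of muscle genes was not tested, and in pooled tissue fewer cells of a type and less RNA per cell cannot be told apart.

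**Figure D2:**
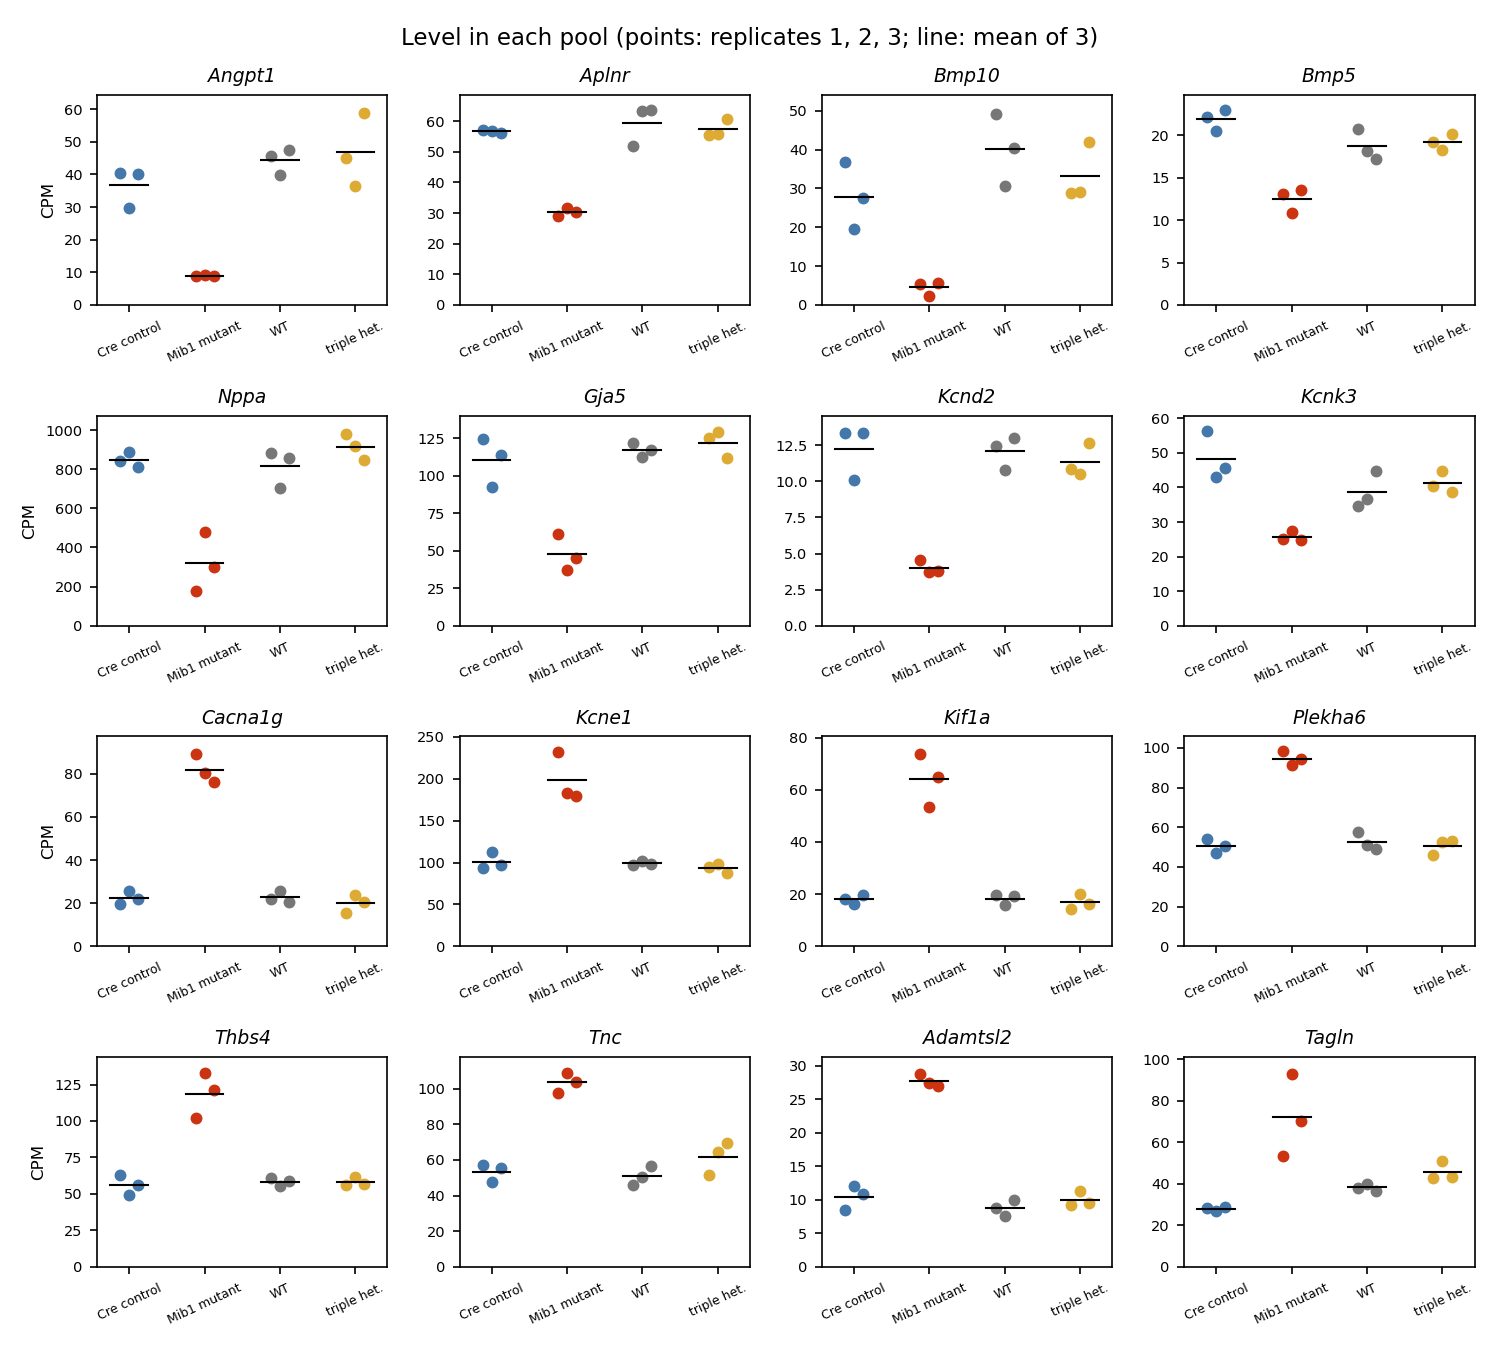
CPM of 16 genes (y axis, from 0) in each of the 3 pools of 4 genotypes (x axis), with a line at the mean of 3. The Mib1 mutant pools (red) lie apart from the 9 others in all 16 panels, with Angpt1 at 8.74 to 9.04 CPM and Cacna1g at 76.0 to 89.1 CPM. All 16 were chosen from the genes called in the comparison with the Cre control.

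Kif1a and Plekha6 rose with small spread between pools. Kif1a, a kinesin motor known for carrying synaptic vesicle precursors in axons (chr1:93015464-93101951), was at 18.3, 16 and 19.8 CPM in the controls and 73.7, 53.4 and 64.7 CPM in the mutants (log2 1.82 ± 0.14, adjusted p 7.59e-06). Neuron markers summed to 18.7 to 24.6 CPM in the controls and 25.6 to 30.9 CPM in the mutants, with Chrna3 at 0 in all 6 pools, 5 of 14 markers tested and none called (1 at an unadjusted p under 0.05, 0 by DESeq2 or limma-voom). The neuron sums of the 2 groups did not overlap, but triple heterozygote pools (21.8 to 26.3 CPM) overlapped the mutants. The part of neurons in the rise of Kif1a was not tested. Plekha6, which encodes a pleckstrin homology domain protein, rose from 54.1, 46.9 and 50.6 CPM to 98.2, 91.5 and 94.2 CPM (log2 0.91 ± 0.0835, adjusted p 4.75e-05). Of 17 kinesin cargo motors, Kif26b was the other call (log2 0.87), with adjusted p 0.0725, 0.154, 0.0713, 0.0923 and 0.109 without Cre control replicates 1, 2 and 3 and Mib1 mutant replicates 1 and 3.

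Axon guidance genes, many of which also pattern vessels, gave 3 calls higher and 1 lower (Sema3a) of 39, with a median of 0.14. Robo1, a receptor for Slit ligands, rose from 41.2, 44.6 and 56.0 CPM to 93.2, 92.8 and 104 CPM (log2 1.03 ± 0.12, adjusted p 0.000287). Unc5b, a netrin receptor of arterial endothelium, rose from 107 to 118 CPM up to 156 to 189 CPM (log2 0.61 ± 0.0999, adjusted p 0.00458), and its adjusted p was 0.0765 without the pools low in Xist. Robo2 was called at log2 0.85 with adjusted p 0.105, 0.118 and 0.0621 without Cre control replicates 1 and 2 and Mib1 mutant replicate 3. Sema3a, the call lower, held in 1 of the 6 fits that left out a pool.

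The ERK response list had positive fold changes in 18 of 18 genes tested, against 51.2% of all genes tested. Its median was 0.30, with 3 called higher. Etv5, an ETS transcription factor induced by FGF signalling, stood at 21.1, 18.2 and 20.6 CPM in the controls and 38.5, 43.2 and 37.2 CPM in the mutants (log2 0.99 ± 0.12, adjusted p 0.000388). The groups did not overlap, and its call held under every alternative. Its relative Etv4 (log2 0.85) and Spry4 (log2 0.42), an inhibitor of the pathway, were called in the full fit. Etv4 had adjusted p 0.154, 0.0771, 0.138, 0.0786 and 0.0901 without Cre control replicates 1, 2 and 3 and Mib1 mutant replicates 2 and 3. For Spry4 the values were 0.0502, 0.173, 0.134, 0.117 and 0.0882 without Cre control replicates 1, 2 and 3 and Mib1 mutant replicates 1 and 3. Egr1, an immediate early gene, was at 50.6 CPM in Mib1 mutant replicate 1 and 18.7 and 20.6 CPM in the other mutant pools, against 14.0 to 16 CPM in the controls, and was not called (log2 0.99, adjusted p 0.0904). Without Mib1 mutant replicate 1 its log2 fold change was 0.38, and it was called without Mib1 mutant replicate 2 (adjusted p 0.017) and with no filter on low counts (0.000436). With all pools and the filter none of the 16 immediate early and heat shock genes was called by edgeR, DESeq2 or limma-voom (3 at an unadjusted p under 0.05).

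Wnt pathway genes had 4 calls higher and 1 lower of 39, a median of 0.24 and 32 positive fold changes. Wif1, a secreted Wnt inhibitor, rose from 10.3, 18.4 and 18.4 CPM to 33.2, 38.5 and 35.8 CPM (log2 1.18 ± 0.161, adjusted p 0.00132). All mutant pools exceeded all controls, and with Fzd2 it was the call of this list that held with every pool left out. Dkk3, also on the atrial list, had adjusted p 0.0563 with Cre control replicate 1 left out and 0.0508 with Mib1 mutant replicate 1 left out. Sost and Sfrp5, secreted inhibitors at under 8 CPM, were called at log2 1.89 and -2.24, values that were 1.25 and -3.09 without Mib1 mutant replicate 2, and that of Sfrp5 was -1.56 without the pools low in Xist. Sost lost its call without Cre control replicates 1, 2 and 3 and Mib1 mutant replicates 1 and 2 (adjusted p 0.138, 0.125, 0.159, 0.0502 and 0.104), and Sfrp5 without Cre control replicates 1 and 2 and Mib1 mutant replicate 3 (0.0787, 0.0519 and 0.0727).

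Matrix genes were called in several classes, most members of each not being called. Thbs4, a thrombospondin of muscle and tendon matrix (chr13:92751590-92794818), was at 63.2, 49.2 and 56.3 CPM in the controls and 102, 133 and 121 CPM in the mutants (log2 1.08 ± 0.102, adjusted p 5.43e-05). Thbs1, a thrombospondin that activates latent TGF-beta, rose from 43.3 to 50.7 CPM up to 76.4 to 105 CPM (log2 1.04 ± 0.147, adjusted p 0.00155). With Tnc and Ccn2 these made 4 calls higher among 34 matricellular proteins and glycoproteins, against 1 lower, Spp1, and the list median was 0.22. Ccn2 had adjusted p 0.093 and 0.134 without Cre control replicates 1 and 3.

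Elastic fibre genes had 22 positive fold changes of 23 and a median of 0.39, with 4 called higher. At an unadjusted p under 0.05 there were 13 of the 23, and DESeq2 called 9 and limma-voom 4. Adamtsl2, a secreted glycoprotein that binds fibrillin microfibrils (chr2:27079379-27108981), stood at 8.5, 12.1 and 10.9 CPM in the controls and 28.8, 27.5 and 27.0 CPM in the mutants (log2 1.40 ± 0.137, adjusted p 6.62e-05). Eln, the elastin gene, was at 44.7, 36.8 and 48.8 CPM in the controls and 102, 149 and 93.3 CPM in the mutants (log2 1.39 ± 0.248, adjusted p 0.008), and its adjusted p was 0.0509 without Cre control replicate 2 and 0.0615 without the pools low in Xist. Fbn2, a fibrillin, and Loxl2, a crosslinking enzyme, were called at log2 0.46 and 0.42. Without Cre control replicate 2 and Mib1 mutant replicate 3 the adjusted p of Fbn2 was 0.063 and 0.0503, and without Cre control replicate 2 and Mib1 mutant replicate 1 that of Loxl2 was 0.0983 and 0.0667.

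Of 32 collagens, 27 had positive fold changes and 1 was called, Col11a1 (log2 0.96), whose call ended with any of the 6 pools left out (adjusted p 0.0524 to 0.117). At an unadjusted p under 0.05 there were 15 of the 32, and DESeq2 called 4 and limma-voom 2. Htra1, a secreted serine protease, rose from 20.8, 20.9 and 21.1 CPM to 42.3, 54.4 and 36.9 CPM (log2 1.09 ± 0.127, adjusted p 0.000285). Among 24 matrix proteases and inhibitors 2 were called higher. Adamts15, a metalloprotease that cleaves the proteoglycan versican, rose from 12.3 to 13.9 CPM up to 19.6 to 21.2 CPM (log2 0.62 ± 0.106, adjusted p 0.0059). Adamts8, of the same family, was called at log2 0.66 with adjusted p 0.123, 0.129 and 0.0624 without Cre control replicates 2 and 3 and Mib1 mutant replicate 3.

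Summed markers of matrix-producing cells were also higher in the mutants than in the controls. Summed over 12 fibroblast markers, the level was 5730 to 5880 CPM in the controls and 6370 to 7720 CPM in the mutants, with 11 of 12 fold changes positive, a median of 0.23 and none called by edgeR (5 at an unadjusted p under 0.05, 1 called by DESeq2, 0 by limma-voom). Fbln2, a fibulin of that list, had log2 0.58 and adjusted p 0.0507, and was called when only the 6 libraries were fitted (0.0179) and with no filter on low counts (0.00033), and Fbn1, a fibrillin, was called without Mib1 mutant replicate 2 (0.0271). Epicardial markers summed to 239 to 253 CPM and 278 to 301 CPM, with 1 of 12 called, Krt18, whose adjusted p was 0.0547 without the pools low in Xist. Sums of valve and outflow mesenchyme markers were 1720 to 1820 CPM and 2010 to 2390 CPM, with 2 of 13 called, Tbx20 and Prrx2. Without Cre control replicates 1, 2 and 3 and Mib1 mutant replicates 1, 2 and 3 these calls numbered 0, 0, 0, 1, 1 and 1. In all 3 lists no mutant pool overlapped a control pool. Fibroblast and epicardial sums of the mutants did overlap those of WT (5210 to 6380 and 238 to 284 CPM). They also overlapped those of the triple heterozygote (5330 to 7770 and 243 to 339 CPM). Valve sums of the mutants lay above both (1770 to 1890 CPM in WT and 1640 to 1880 CPM in the triple heterozygote). The medians of the 3 marker lists, 0.13 to 0.32, were of the size of those of the elastic fibre, collagen, matricellular and protease lists, 0.39, 0.27, 0.22 and 0.26. Some genes stand on more than 1 list (1019 entries for 917 different genes). The fibroblast list itself holds matrix genes such as Fbln2, so the marker and matrix values are not separate observations. The part of matrix-producing cells in the rise of matrix genes was not tested.

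**Figure D3:**
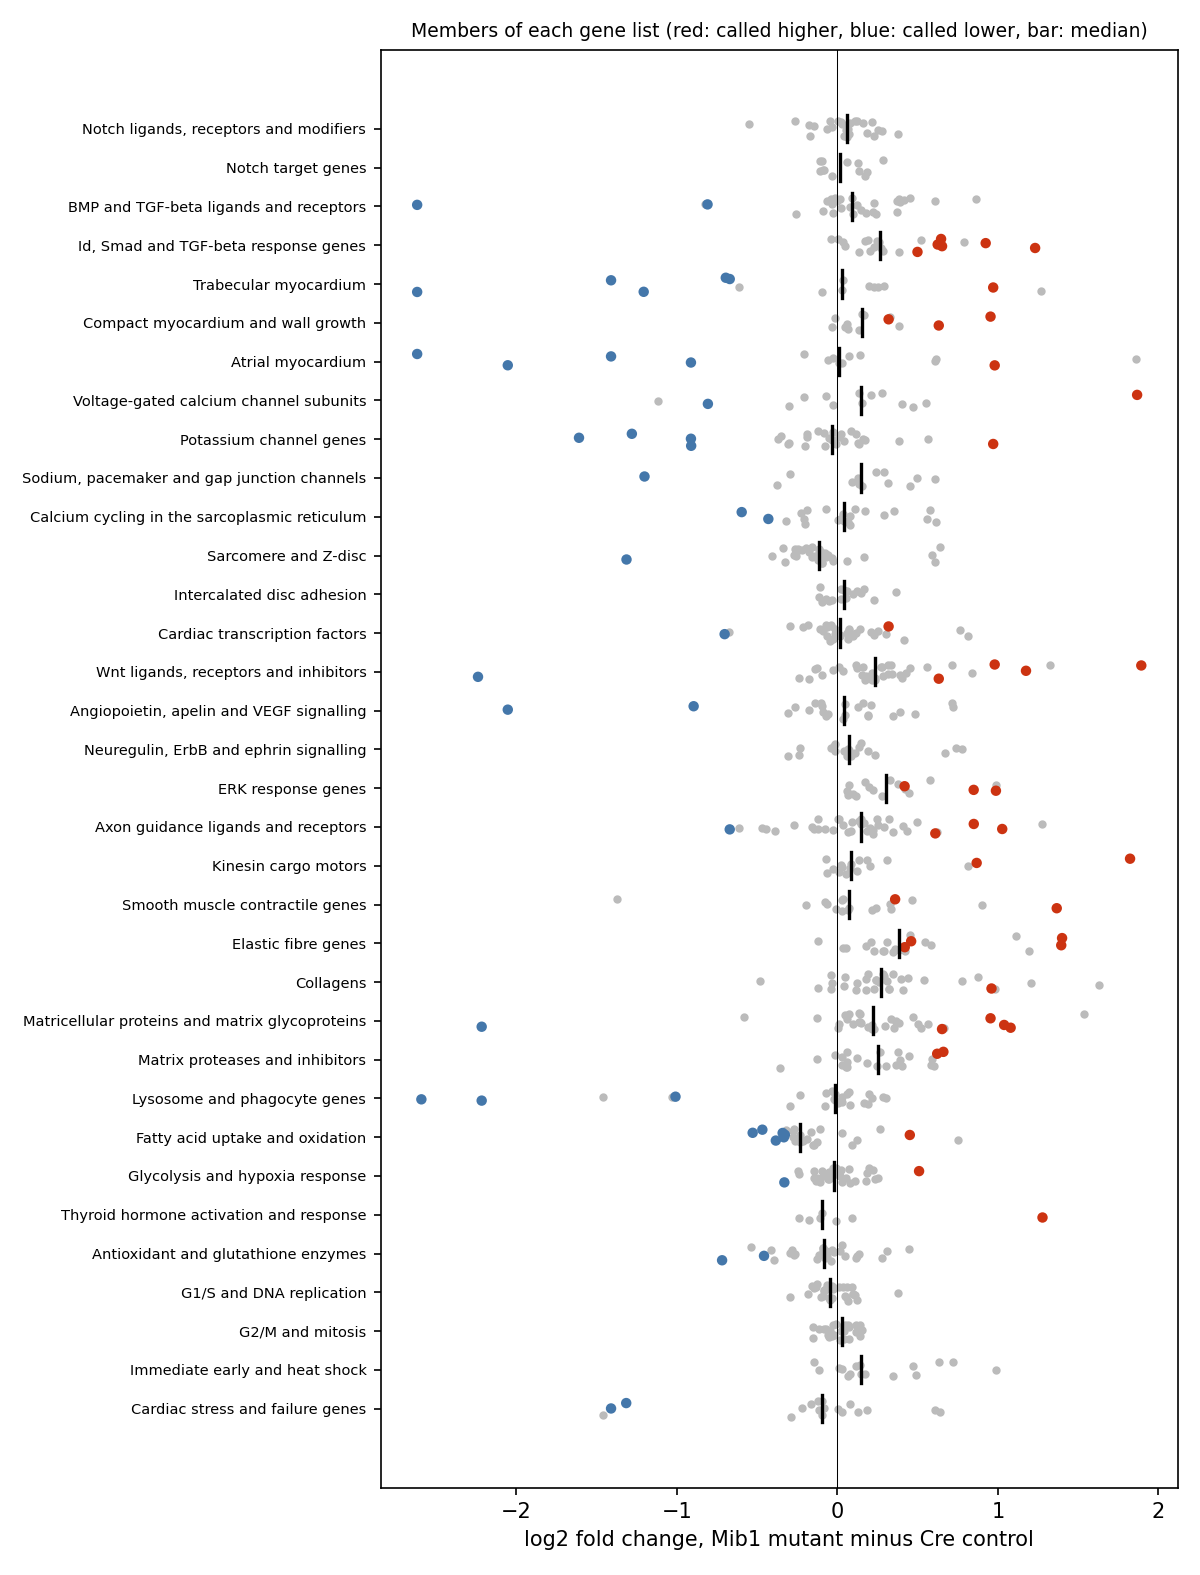
Log2 fold change of Mib1 mutant over Cre control (x axis) for each tested member of 34 gene lists (y axis), with genes called higher in red, called lower in blue, others in grey, and a bar at the list median. The elastic fibre list has the highest median, 0.39, and the fatty acid list the lowest, -0.23.

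Tagln, an actin-binding protein of smooth muscle and fetal myocardium, stood at 28.2, 27.1 and 28.7 CPM in the controls and 53.5, 93.0 and 70.2 CPM in the mutants. The log2 fold change was 1.37 ± 0.149 (SE, adjusted p 0.000179), and the control pools lay below the WT pools (36.7 to 40.1 CPM) as well as below the mutants. Acta2, smooth muscle actin, was at 1180 to 1270 CPM in the controls and 1020, 1710 and 1620 CPM in the mutants and was not called (adjusted p 0.452), but was without Mib1 mutant replicate 1 (0.00365). Of 18 contractile genes 2 were called higher, and the other, Cald1 (log2 0.36), lost its call without Cre control replicates 2 and 3 and Mib1 mutant replicates 1, 2 and 3 (adjusted p 0.211, 0.158, 0.161, 0.0523 and 0.0701). Smooth muscle and pericyte markers summed to 2270 to 2330 CPM in the controls and 2230 to 2880 CPM in the mutants, ranges that overlapped. Lima1, an actin-bundling protein chosen after its values were seen, rose from 34.0 to 37.9 CPM up to 50.6 to 54.0 CPM (log2 0.51 ± 0.0723, adjusted p 0.00164).

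Among genes of other roles, Otud1, a deubiquitinase, rose with little spread between pools. It stood at 43.4, 42.0 and 42.8 CPM in the controls and 65.5, 64.0 and 62.8 CPM in the mutants (log2 0.59 ± 0.063, adjusted p 0.000161). Dio2, the deiodinase that activates thyroid hormone, rose from 12.1, 11 and 13.5 CPM to 42.9, 20.4 and 25.5 CPM (log2 1.27 ± 0.209, adjusted p 0.00458), the single call among 7 thyroid genes tested. Igfbp3, a binding protein of insulin-like growth factors, rose from 102, 109 and 98.0 CPM to 286, 180 and 162 CPM (log2 1.02 ± 0.155, adjusted p 0.00258), and Fstl3, an activin inhibitor, from 12.4 to 14.9 CPM up to 22.5 to 29.6 CPM (log2 0.98 ± 0.137, adjusted p 0.00139). Igfbp3 and Fstl3 were chosen after their values were seen. In Dio2 and Igfbp3, Mib1 mutant replicate 1 was far above the other mutant pools, and both calls held without it.

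Metabolic genes gave calls in both directions, with more members of the fatty acid list called lower than higher. Gpx3, the secreted glutathione peroxidase, was at 227, 225 and 255 CPM in the controls and 135, 166 and 130 CPM in the mutants (log2 -0.72 ± 0.0993, adjusted p 0.00138). Of 28 fatty acid uptake and oxidation genes, 6 were called lower and 1 higher, 22 had negative fold changes and the median was -0.23. At an unadjusted p under 0.05 there were 18 of the 28, and DESeq2 called 14 and limma-voom 7. Hadhb, a subunit of the mitochondrial trifunctional protein, fell from 517, 521 and 487 CPM to 410, 390 and 404 CPM (log2 -0.34 ± 0.0595, adjusted p 0.00692). It was the 1 call of the 7 that held with every pool left out. When only the 6 libraries were fitted, 0 of the 7 calls remained, with Hadhb at adjusted p 0.0762. Without Cre control replicates 1, 2 and 3 and Mib1 mutant replicates 1, 2 and 3, the calls among the 7 numbered 3, 1, 2, 4, 4 and 1. Cardiomyocyte markers, of the main cell type using fatty acids, had a median of -0.24, near that of the list, and the mitochondrial share of reads was 9.35% to 10.8% in the controls and 7.79% to 9.03% in the mutants. The part of either in these falls was not tested.

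Genes known from macrophages were among those that fell. The 25 lysosome and phagocyte genes tested had a median of -0.01, with 12 positive and 13 negative fold changes. Among them 3 were called lower (Gpnmb, Spp1 and Ctss) and none higher. Ctss (log2 -1.01) had adjusted p 0.0663, 0.129, 0.0598 and 0.0866 without Cre control replicates 2 and 3 and Mib1 mutant replicates 1 and 3. Spp1, osteopontin, was at 35.4, 38.4 and 46.0 CPM in the controls and 7.98, 12.1 and 5.86 CPM in the mutants (log2 -2.22 ± 0.34, adjusted p 0.00298), and Gpnmb, a lysosomal glycoprotein, at 20.9, 20.4 and 23.3 CPM and 2.09, 5.78 and 2.84 CPM (log2 -2.59 ± 0.404, adjusted p 0.00324). WT pools were at 8.22 to 23.8 CPM for Spp1 and 4.68 to 13.2 CPM for Gpnmb, ranges that overlapped the mutants. Lyz2, lysozyme, fell from 20.6 to 28.3 CPM down to 8.88 to 15.1 CPM (log2 -1.02 ± 0.167, adjusted p 0.00455). Of 16 macrophage and leukocyte markers 14 had negative fold changes, the median was -0.49, and 2 were called lower. The summed markers were 134 to 164 CPM in the controls and 96.6 to 131 CPM in the mutants, without overlap. WT pools, at 126 to 142 CPM, overlapped the mutants, and triple heterozygote pools, at 144 to 159 CPM, did not. The second call, C1qb (log2 -0.61), had adjusted p 0.0822, 0.129, 0.0569 and 0.0784 without Cre control replicates 2 and 3 and Mib1 mutant replicates 2 and 3.

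Cd300lg, a surface protein of capillary endothelium, fell from 13.8, 15.8 and 14.3 CPM to 7.60, 6.71 and 6.21 CPM (log2 -1.10 ± 0.127, adjusted p 0.000273). Rbp7, a retinol-binding protein of endothelium chosen after its values were seen, fell from 5.70 to 6.70 CPM down to 2.09 to 2.93 CPM (log2 -1.30 ± 0.207, adjusted p 0.00397). Pan-endothelial and endocardial markers summed to 1490 to 1620 CPM and 1500 to 1700 CPM, which overlapped, with a median of 0.02 and none of 16 called by edgeR, DESeq2 or limma-voom (3 at an unadjusted p under 0.05, and 1 called lower without Mib1 mutant replicate 2). Cdh5, the endothelial cadherin, was at 263 to 286 CPM in the controls and 272 to 302 CPM in the mutants. Coronary endothelial and vascular markers summed to 877 to 920 CPM and 739 to 930 CPM, which overlapped, with a median of 0.09. Of 11 tested, 2 were called lower (Aplnr and Cd36) and 1 higher (Unc5b). Without Cre control replicates 1, 2 and 3 the adjusted p of Cd36 was 0.117, 0.0931 and 0.0688. Without Mib1 mutant replicates 2 and 3 it was 0.0569 and 0.0992. Gtsf1, known for its role in germ cell small RNA silencing, fell from 10.3, 8.06 and 8.25 CPM to 2.38, 3.26 and 3.27 CPM (log2 -1.57 ± 0.198, adjusted p 0.000543).

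**Figure D4:**
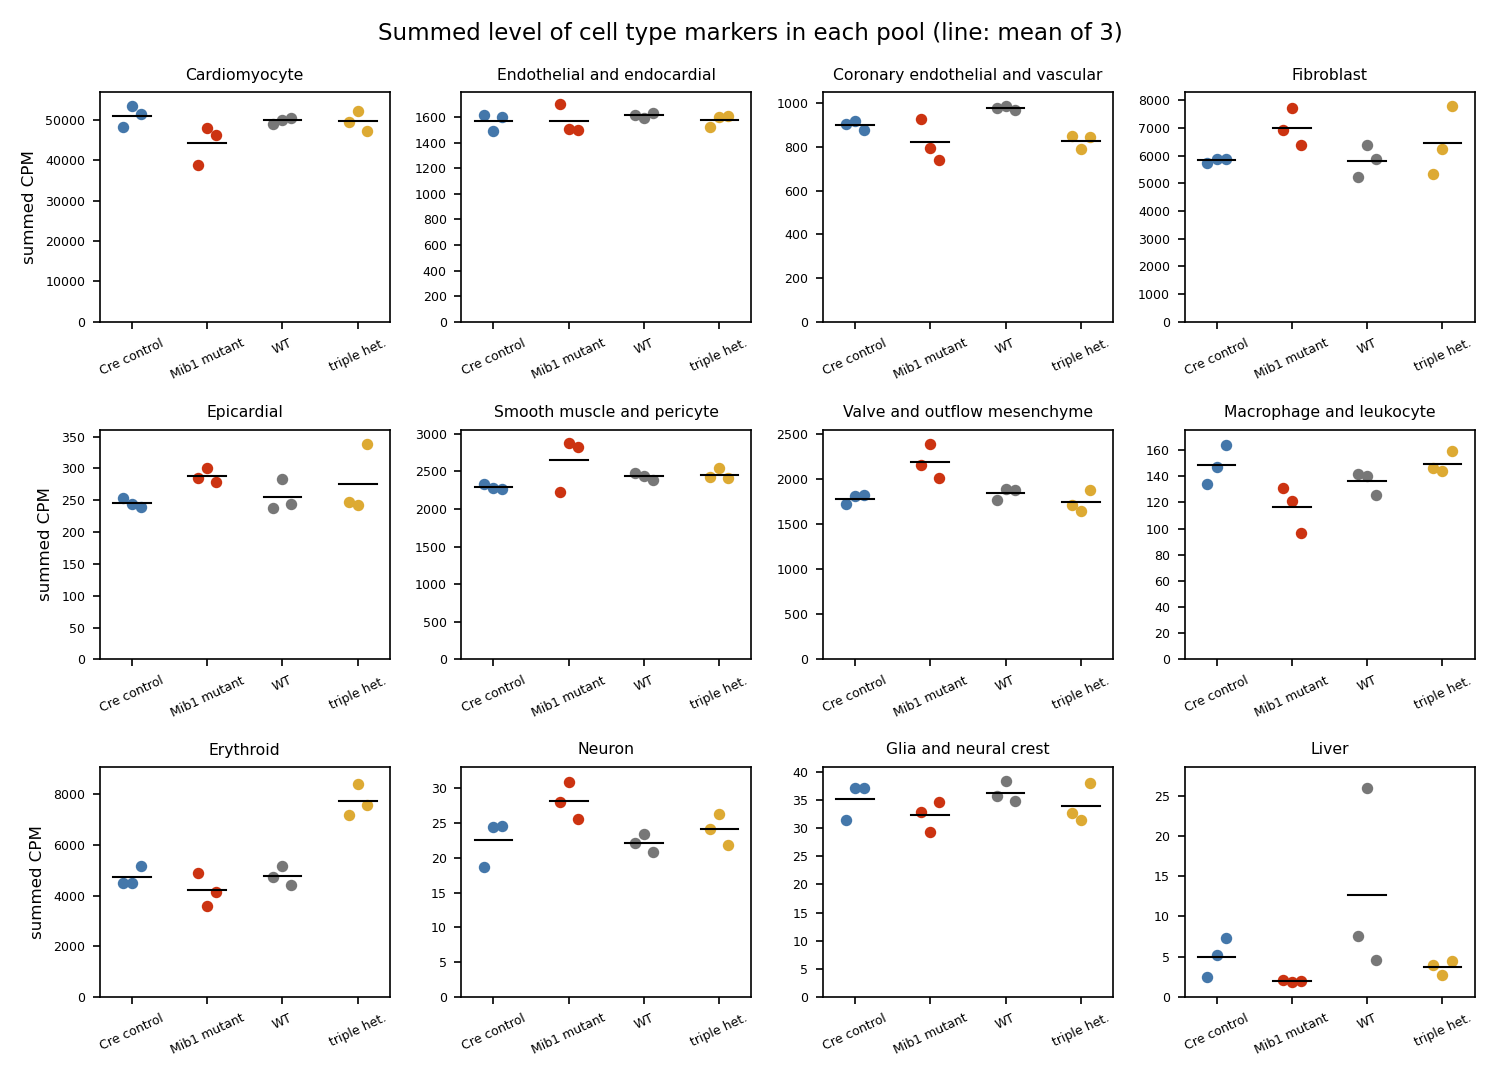
Summed CPM of the markers of 12 cell types (y axis, from 0) in each of the 3 pools of 4 genotypes (x axis), with a line at the mean of 3. Fibroblast, epicardial and valve marker sums are higher and cardiomyocyte and macrophage sums lower in every Mib1 mutant pool than in every Cre control pool. For all of these but the valve markers, WT or triple heterozygote pools overlap the mutant pools.

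No transcript of the Notch pathway lists was called by edgeR, DESeq2 or limma-voom with all pools. Without Mib1 mutant replicate 2, 1 of them was called higher, the endothelial receptor Notch4 (log2 0.53, adjusted p 0.0103, against 0.38 and 0.168 with all pools). The 26 ligands, receptors and modifiers had a median of 0.06 and 5 unadjusted p under 0.05, and the 12 target genes a median of 0.01 and 0 unadjusted p under 0.05. Over all 13964 genes tested 1954 had an unadjusted p under 0.05. Jag1, a ligand, was at 25.5, 18.7 and 23.1 CPM in the controls and 22.5, 26.1 and 22.2 CPM in the mutants, which overlapped. Notch1, the main endocardial receptor, stood at 70.8 to 89.7 CPM and 81.3 to 99.3 CPM (log2 0.19 ± 0.102, adjusted p 0.445). Hes1, Hey1 and Heyl, targets induced by the cleaved receptor, had log2 fold changes of 0.18, -0.10 and 0.17, with SEs of 0.14, 0.153 and 0.0925. In simulated data the procedure recovered 65.7% of changes of log2 0.5, so smaller changes in these genes could have been missed.

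No gene of the cell cycle lists was called by edgeR, DESeq2 or limma-voom, among 31 of G1/S and DNA replication (median -0.05, 1 at an unadjusted p under 0.05) and 30 of G2/M and mitosis (median 0.03, 2 at an unadjusted p under 0.05). Tpx2, a spindle protein, was at 109 to 115 CPM in the controls and 121 to 128 CPM in the mutants, and Gmnn, a replication licensing inhibitor, at 54.5 to 58.7 CPM and 38.1 to 51.7 CPM. Neither difference passed the test (adjusted p 0.329 and 0.178), but that of Gmnn did without Mib1 mutant replicate 2 (0.0493). The neuregulin, ErbB and ephrin list, which covers other signals to trabeculae, had 0 calls of 20 by the same 3 tools, 4 unadjusted p under 0.05 and a median of 0.07.

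A second comparison asked whether the mutant effect differed from that of the triple heterozygote against WT, which shares no library with it. Both place R530X in all cells. In the mutant comparison the loxP-flanked allele is deleted in cardiomyocytes of both genotypes, so R530X replaces the one intact allele left there, while in the triple heterozygote comparison a normal allele remains and the Asxl3 and Apcdd1 alleles are added. The difference between the effects was called for 72 genes (0.516%), 45 with the larger value in the mutant and 27 with the smaller. Of these 60 were also called in the mutant comparison, which is 83.3% of the 72 and 28.6% of the 210. The difference contains the mutant effect and uses the same mutant and control pools, so this overlap is no separate support. Without Cre control replicates 2 and 3 and Mib1 mutant replicate 3 the count was 43, 38 and 41, and without Mib1 mutant replicate 2 it was 233. Among the genes called in the mutant, 59 of 127 higher and 46 of 83 lower had the same sign in the triple heterozygote, with medians of -0.027 and -0.04. In the triple heterozygote comparison 49.9% of all genes tested had positive fold changes.

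Cacna1g, Kif1a and Angpt1 had differences of 2.04, 1.92 and -2.11 on the log2 scale (adjusted p 0.000711, 0.00082 and 0.000824). Triple heterozygote pools were at 15.2 to 23.7 CPM for Cacna1g, 14.2 to 20.1 CPM for Kif1a and 36.4 to 58.8 CPM for Angpt1, each overlapping WT. Bmp10 (-2.34, adjusted p 0.0135), Kcnd2 (-1.51, adjusted p 0.00623), Gja5 (-1.26, adjusted p 0.00815) and Aplnr (-0.84, adjusted p 0.00623) differed as well, and all 7 held in every alternative run. No alternative left out a WT or triple heterozygote pool, so dependence on single pools of these groups was not tested. Tnc (0.67, adjusted p 0.0751) and Id2 (0.44, adjusted p 0.0924) did not pass this test, with triple heterozygote pools at 51.8 to 69.5 CPM and 54.4 to 56.3 CPM. Mib1 gave a difference of -0.02 (adjusted p 0.954).

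**Figure D5:**
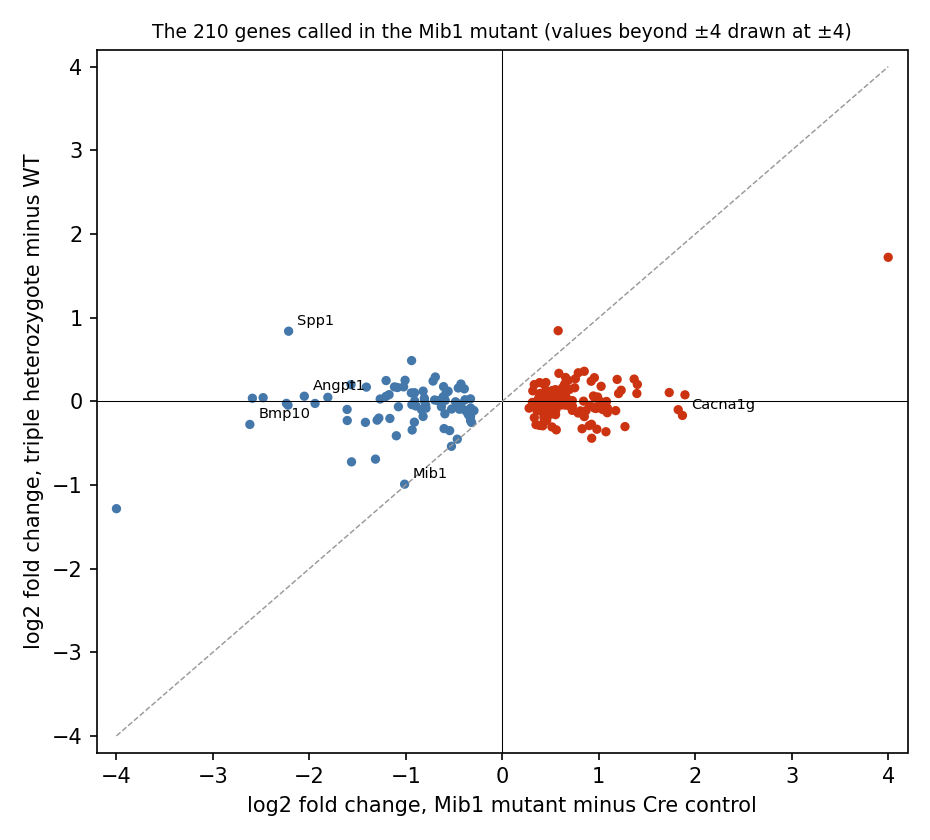
Log2 fold change of triple heterozygote over WT (y axis) against that of Mib1 mutant over Cre control (x axis) for the 210 genes called in the mutant, with a dashed line of equal effects and values beyond ±4 drawn at ±4. On the y axis the medians are -0.027 (higher genes, red) and -0.04 (lower genes, blue), with single genes farther out, such as Spp1 at 0.84, and Mib1, Acsl1 and Cd36 lie close to the line.

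Some calls had patterns of presence and absence, and these genes were chosen after their values were seen. Gm13841, a processed pseudogene (chr5:115801677-115802159), had no read in the 3 control and 3 WT pools and stood at 26.3, 22.8 and 18.4 CPM in the mutants, at least 89.1-fold higher by a floor of 3 counts per library. For Gm13841 the difference from the triple heterozygote effect was not called, so its rise was not shown to be particular to the mutant. Fndc10, at 3.67, 3.81 and 3.58 CPM in the controls, had no read in the mutants, at least 13.4-fold lower, and its adjusted p was 0.0725, 0.0788, 0.0793, 0.0923 and 0.0785 without Cre control replicates 1, 2 and 3 and Mib1 mutant replicates 1 and 3. Fndc10 also had no read in 2 of the 3 triple heterozygote pools, while WT pools stood at 2.25 to 3.45 CPM. Between 175 and 178 Mb of chromosome 2, 31 of 35 genes tested had negative fold changes, the median was -0.52, and 6 were called, all lower (Gm4631, Zfp966, Gm14435, Gm14295, Gm14296 and Gm14326). Over all genes tested 1.5% were called and 51.2% had positive fold changes. The bounds of the interval were set by the positions of called genes, so its calls are no separate support. The 6 genes have near-identical copies, so the division of shared reads makes their single values uncertain, and Gm14326 alone of the 6 was called under every alternative.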

How the data were processed

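PolyA RNA of the 12 pools was sequenced from strand-specific libraries as 60-base single reads, per the labels' protocols. The authors deposited RSEM expected counts per gene, which need not be whole because shared reads are divided between genes. The submitters' processing notes also name bcl2fastq 2.20.0.422, cutadapt, limma and GRCm38, with the aligner and annotation release not given in the sources used here. Columns were matched to samples by the alleles in their names, the triple heterozygote by exclusion. GENCODE M21 gave symbols for 36429 of 38293 identifiers, and RefSeq (GRCm38.p6) the promoters.

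Expected counts were rounded. The two-sided quasi-likelihood F test of edgeR 4.0.16 (R 4.3.3) was run with TMM scaling and filterByExpr on all 12 libraries in 1 fit with 8 residual degrees of freedom. Benjamini-Hochberg adjustment covered 13964 genes, with a threshold of 0.05. The SE is the log2 fold change divided by the square root of F, and CPM uses TMM-scaled library sizes. Genes were named by the 12 smallest p in each direction with at least 2 CPM, by up to 6 called members of each of 46 lists (2 where none was called), and by markers, and others are marked as chosen after their values were seen. Some genes that this rule names are not reported here. The members and lists were chosen with earlier results of these data known. Alternatives included limma-voom (limma 3.58.1), DESeq2 1.42.0, other scalings and filters, a replicate block and each Mib1 mutant and Cre control pool left out in turn. Leaving out predicted genes and pseudogenes was added after seeing the data. On simulated counts for 13806 genes the procedure recovered 65.7%, 88.1% and 100% of changes of log2 0.5, 1 and 2 in the Mib1 mutant comparison.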

Additional observations from a re-analysis of the deposited data

Results flagged for a closer look

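The effect of the Mib1 mutant genotype and that of the triple heterozygote differed for 72 genes by a test of the difference itself (edgeR, adjusted p under 0.05), with 1928 genes at an unadjusted p under 0.05. The 6 named by the smallest p were Cacna1g (2.04 on the log2 scale), Kif1a (1.92), Angpt1 (-2.11), Plekha6 (0.95), Kcne1 (1.06) and Thbs4 (1.08), and each held in all 15 alternatives run for this test, none of which left out a WT or triple heterozygote pool. In each of them all 3 mutant pools lay beyond the 9 other pools, against 5.75% of all genes tested. The 6 were chosen by a test on these same pools, so that pattern is no separate support.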

How the results depend on the processing

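The number of genes called in the Mib1 mutant, 210, was 476 without a filter on low counts, 417 by DESeq2, 93 when only the 6 libraries were fitted and 110 without the pools low in Xist, and ran from 116 to 415 with 1 pool left out. The number called for the difference between effects, 72, was 246, 167 and 41 under the first, second and last of these settings, and ran from 38 to 233 with 1 Mib1 mutant or Cre control pool left out. WT and triple heterozygote pools were kept in every fit of that difference. Without the pools low in Xist the share of higher calls in that difference was 48.8%, against 62.5%. The cause was not tested. The labels do not say that replicate numbers pair the pools, and the correlations of deviations between same-numbered pools were 0.125, 0.166 and 0.014, with mutant replicate 3 closer to control replicate 1 (0.113). With the replicate number as a block the counts were 318 and 109, and in fits of the 6 libraries alone the block took the count from 93 to 262. The other settings left both counts within 1.5 times, no result reversed, and 65 of the 210 genes kept their call in all 17 alternatives. Changes under log2 0.5 are the ones this depth and number of pools most often miss.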

Other observations

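Genes called for the difference between effects but not in the Mib1 mutant comparison included 5 erythroid genes, Hba-a1, Hba-a2, Hbb-bs, Hbb-bt and Alas2, with differences of -0.93, -1.03, -0.76, -0.87 and -0.90 on the log2 scale. Their adjusted p values were 0.0184, 0.00659, 0.0307, 0.0382 and 0.035. Hba-a2 kept its call in all 14 alternatives, while of the 6 fits that left out 1 pool Hba-a1 kept it in 5, Hbb-bs and Alas2 in 3 and Hbb-bt in 2, with adjusted p up to 0.0501, 0.0983, 0.122 and 0.116. The pools left out were Mib1 mutant and Cre control pools only, not WT or triple heterozygote pools. These genes were chosen after their values were seen. Erythroid markers summed to 3590 to 4890 CPM in the Mib1 mutant and 4490 to 5150 CPM in the Cre control, against 7190 to 8400 CPM in the triple heterozygote. None of the 5 was called in the Mib1 mutant.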
